A study of Mus musculus with 13 samples.

Results

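CD8 T cells are the lymphocytes that recognise peptides on MHC class I and kill infected or altered cells. Their receptor signals through the CD3 chains, and the Cd8a and Cd8b1 proteins form the co-receptor that holds the receptor to MHC class I. Naive CD8 T cells circulate through lymph nodes, guided by the chemokine receptor Ccr7. After activation they lose it and make chemokines such as Ccl5 and the granzymes and perforin (Prf1) that enter and kill a target cell, and some of their progeny stay in tissues such as the lung.

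The CD8 T cells described here came from mouse lungs dissociated with protease and loaded on a droplet system, in which each unique molecular identifier (UMI) marks 1 captured RNA molecule. The labels call all 13 samples single-cell, with 1 each of Asthma, PPE-emphysema, PPE-recovery and Control, PPE being the elastase of porcine pancreas, and 3 each of Acute injury, Con and emphysema. For the first 4 groups the study sequenced the lung cells of 1 mouse each. By the study's text the PPE model used C57BL/6 mice. The Asthma model received ovalbumin (OVA), the PPE-emphysema model repeated intratracheal instillations and the PPE-recovery model a single one, and the age of the mice was not found in the sources used here. The count matrix carries the numbers of 7 libraries in its barcodes and no group or sample, so no library was placed in a group, no groups were compared and no test between conditions was made.

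A barcode was taken as a CD8 T cell in libraries 1, 2, 3 and 7 if mitochondrial genes held at most 10% of its UMIs, if it had at least 2 UMIs over Cd3e, Cd3d and Cd3g and at least 1 over Cd8a and Cd8b1, and if it had 0 over Cd4, Cd79a and Foxp3. This took 461 of the 37344 barcodes of the matrix, with 102, 139, 155 and 65 in libraries 1, 2, 3 and 7. Because the rule reads measured counts, the CD3 and CD8 genes themselves are given as a description. Outside the rule, all 461 cells had a UMI of Trac, Trbc1 or Trbc2, the constant parts of the alpha and beta receptor chains. A UMI of Trdc, Tcrg-C1, Tcrg-C2 or Tcrg-C4, the constant parts of the delta and gamma chains, was in 68, and 16 had one of Trdc. The alpha and beta genes do not tell CD8 from other T cells. They were also in 94.1% of the 339 barcodes that met the rule except for having 0 CD8 UMIs. Cd8a had 565, 349, 305 and 535 UMIs per 1e+06 UMIs (CPM) in libraries 1, 2, 3 and 7, Cd8b1 had 629, 769, 573 and 769 CPM, and Cd3e had 523, 347, 350.5 and 508 CPM. On GRCm38, GENCODE places Cd8a at chr6:71373427-71379173 on the plus strand, Cd8b1 at chr6:71322788-71337494 on the plus strand and Cd3e at chr9:44998740-45009627 on the minus strand. Both Cd8a and Cd8b1 were detected in 362 cells, Cd8a alone in 30 and Cd8b1 alone in 69.

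The lung origin of the 4 libraries was checked in the same cells with markers of other tissues. The 6 listed erythroid genes summed to 2.66, 3.35, 0.872 and 1.93 CPM in the CD8 T cells of libraries 1, 2, 3 and 7. Cells chosen by the same rule in libraries 4, 5 and 6 held 117017, 40288 and 54278 CPM of them, and 0 UMIs of Scgb1a1, the secretory protein of airway club cells. In libraries 1, 2, 3 and 7, Scgb1a1 had a UMI in 80.4%, 98.6%, 99.4% and 50.8% of the CD8 T cells, and in 86.7% of the 1772 B cells of these libraries, taken as cells with at least 2 UMIs over Cd79a, Cd79b and Ms4a1 and 0 of the CD3 genes. A gene of airway cells was thus seen in most lymphocytes of the lung libraries at a like share in CD8 T and B cells.

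The median CD8 T cell held 6673 UMIs, with medians of 6334.5, 6889, 6642 and 7620 in libraries 1, 2, 3 and 7, against 4848.5 in B cells, 4602 in NK cells and 6082 in conventional CD4 T cells. The summed CD8 T cell profiles of these libraries rested on 752075, 1192964, 1147027 and 517683 UMIs. Between pairs of these libraries 64 barcode sequences recurred among 24344 barcodes, and 0 of them were CD8 T cells in both libraries. At the edge of the rule, 10 members had exactly 2 CD3 UMIs and a median of 1972 UMIs in all, while 12 barcodes with 1 CD3 UMI fell outside. Similarly, 34 members had a single CD8 UMI, and 339 barcodes with none fell outside.

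CD8 T cells were 23.3%, 37.9%, 46.5% and 34.0% of the T cells of libraries 1, 2, 3 and 7, where T cells are all kept cells with at least 2 CD3 UMIs and no Cd79a UMI. The exact binomial 95% interval was 19.4 to 27.5% in library 1 and 41.1 to 52.1% in library 3, and these intervals do not overlap. There were 0.537, 1.43, 1.91 and 1.30 CD8 T cells for each conventional CD4 T cell in these libraries. The interval of this ratio lay below 1 in library 1 (0.418 to 0.686) and above 1 in libraries 2 and 3, and in library 7 it held 1 (0.885 to 1.92). T cells with no UMI of Cd4, Cd8a, Cd8b1 or Foxp3 numbered 114, 112, 68 and 45, so the ratio depends on the detection of the co-receptors. These and all other intervals cover counting error alone and not the spread between mice.

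**Figure D1:**
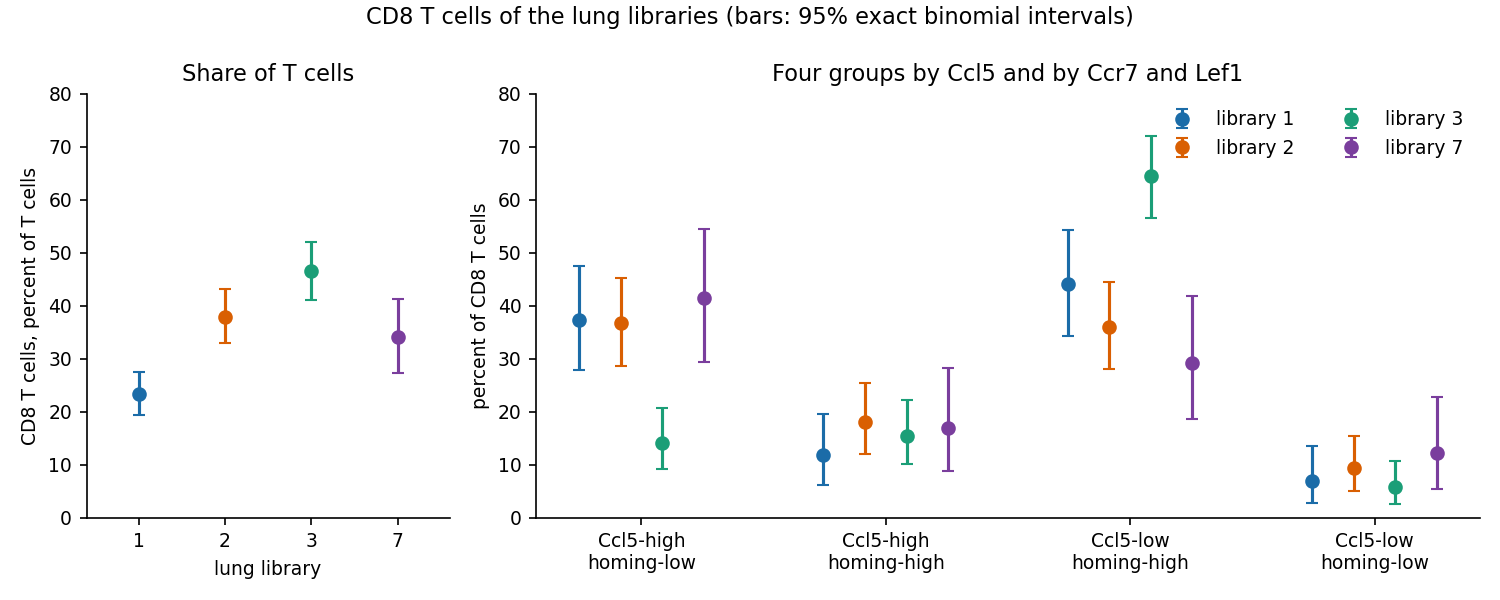
CD8 T cells as a percent of T cells (left) and the percent of CD8 T cells in each of 4 groups set by Ccl5 and by Ccr7 and Lef1 (right), by lung library, with points for the share and bars for exact binomial 95% intervals. Library 1 has the lowest share of CD8 T cells among T cells (23.3%), and library 3 has the lowest share of Ccl5-high homing-low cells (14.2%) and the highest of Ccl5-low homing-high cells (64.5%).

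Against the 418 conventional CD4 T cells of the same libraries (the same CD3 limit, at least 1 Cd4 UMI and no UMI of Cd8a, Cd8b1, Cd79a or Foxp3), the CD8 T cells carried more RNA of killing proteins and of receptors best known from natural killer (NK) cells. A gene was called higher or lower here if its CPM differed at least 2-fold in the same direction in each of the 4 libraries, among genes with at least 10 CPM in either cell type, leaving out the genes of the rules. Of 8582 genes tested, 28 (0.326%) were called higher and 58 (0.676%) lower in CD8 T cells. With each cell thinned to 1500 UMIs before the rule, 6 were higher and 11 lower, of which 5 and 3 were among these. With at most 5% mitochondrial UMIs, 19 were higher and 8 lower, of which 13 and 5 were among the 28 and 58. Of the 17 listed cytotoxic genes 8 were called higher (Gzma, Gzmb, Gzmm, Prf1, Ccl5, Ccl4, Cst7 and Ctsw) and 0 lower, with a median log2 ratio of 1.98 against -0.24 over all genes tested.

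On GRCm38, GENCODE places Gzma at chr13:113093825-113100981 on the minus strand, Gzmb at chr14:56258838-56262260 on the minus strand and Ccl5 at chr11:83525778-83530518 on the minus strand. Gzma, a granule protease, had 402, 1121, 415 and 1138 CPM in the CD8 T cells of libraries 1, 2, 3 and 7 and 0.635, 9.20, 3.11 and 48.6 CPM in the CD4 T cells. Every CD8 value lay above every CD4 value, and the ratio within a library ran from 23.4 in library 7 to 633 in library 1, where it rested on 1 CD4 UMI and had an exact 95% interval of 113 to 25069. The 95% interval of the ratio of the pooled counts was 63.6 to 137. The RNA came from a minority of cells: 69 of the 461 CD8 T cells had a Gzma UMI, against 2.63% of CD4 T cells and 0.959% of B cells. With each cell thinned to 1500 UMIs, the share was 13.3% in CD8 T cells and 0 of the 1741 B cells left, with an exact 95% upper bound of 0.212%.

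Prf1, the protein that opens the target membrane, stood at 79.8, 78.8, 45.3 and 122 CPM in CD8 T cells and at 1.90, 5.11, 7.77 and 11.4 CPM in CD4 T cells. Gzmb, a granule protease that triggers apoptosis, stood at 117, 300.1, 239.8 and 265 CPM against 2.54, 32.7, 77.7 and 25.7 CPM. In both genes no CD4 value reached the lowest CD8 value, and library 3 had the smallest ratio, 5.83 for Prf1 and 3.09 for Gzmb. Ccl5, a chemokine that draws T cells and monocytes, had 5426, 6699, 2850.0 and 9449.8 CPM in CD8 T cells against 81.2, 856, 723 and 2270.5 CPM in CD4 T cells. The 2 cell types did not overlap in Ccl5 across libraries, although the CD4 value of library 7 came near the CD8 value of library 3.

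Gzmk, a granzyme of memory-like CD8 T cells, was not called: its ratio to CD4 T cells was 124, 2.51, 1.12 and 3.34 in libraries 1, 2, 3 and 7, and the value of library 1 rested on 1 CD4 UMI, with an interval of 21.3 to 4963. Nkg7, a granule membrane protein, missed the call in library 3 alone, with a ratio of 1.99.

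Of the 10 listed NK receptor genes tested, 5 were called higher in CD8 than in CD4 T cells (Klrd1, Klrc1, Klrc2, Klre1 and Klrk1) and 0 lower, with a median log2 ratio of 3.76. Klrd1, the CD94 chain that pairs with the NKG2 chains, had 309.8, 291, 238 and 313 CPM in CD8 T cells and 8.89, 54.2, 15.5 and 11.4 CPM in CD4 T cells. It was detected in 75.9% of CD8 T cells and in 2.65% of B cells, and in 34.1% and 0.517% after thinning, so its spread over cells differed from that of Gzma. Its NKG2 partner Klrc1 had 116, 129, 24.4 and 151 CPM against 0, 14.3, 0 and 2.86 CPM. Klrc1 and Klrc2 are close relatives in sequence, and how reads that fit both were counted is not stated, so their separate values are uncertain.

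Ly6c2, a surface protein of memory CD8 T cells and of monocytes, had 428, 762, 474 and 603 CPM in CD8 T cells and 19.0, 133, 9.32 and 0 CPM in CD4 T cells. It was the gene of the memory list called higher, 1 of 11. Lcn4 and Fam241a were also among the 10 called genes whose smallest ratio over the libraries was largest, and Fam241a had 128, 127, 241 and 102 CPM against 25.4, 26.6, 40.4 and 25.7 CPM. The genes of naive and lymph node homing cells had a median log2 ratio of 0.74, with 0 of 12 called. None of the 20 listed cytokine receptor genes tested was called, a list without Il1rl1, which is described below. Of 15 chemokine receptor genes tested Cxcr5, which leads cells into B cell follicles, was called higher, with 10.6, 6.71, 14.8 and 19.3 CPM against 4.44, 3.07, 6.22 and 5.72 CPM, on 8 to 17 CD8 UMIs per library, and Ccr4 was called lower.

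The genes lower in CD8 T cells included genes of helper cells. Of the 9 listed genes of conventional CD4 T cells that were tested, 7 were called lower (Cd40lg, Zbtb7b, Icos, Ctla4, Izumo1r, St8sia6 and Trat1). Zbtb7b, the transcription factor that directs the CD4 lineage, had 7.98, 5.03, 4.36 and 7.73 CPM in CD8 T cells and 58.4, 39.9, 24.9 and 60.0 CPM in CD4 T cells. The CD4 value was 5.70 to 7.93 times the CD8 value within a library, a narrow range beside that of Gzma. Cd40lg, the ligand through which helper cells license B and dendritic cells, had 1.33, 3.35, 0.872 and 11.6 CPM against 42.5, 65.4, 35.7 and 82.9 CPM.

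Maf, a factor of helper cells, had 63.8, 15.9, 7.85 and 77.3 CPM in CD8 T cells and 463, 181, 207 and 509 CPM in CD4 T cells. Il1rl1, the receptor for IL-33 on type 2 cells, had 3.99, 5.03, 0 and 0 CPM against 97.8, 33.7, 17.1 and 77.2 CPM. Ccr4, a chemokine receptor of type 2 helper and regulatory cells, had 3.99, 0.838, 0 and 0 CPM against 90.1, 8.18, 17.1 and 28.6 CPM. In these 3 genes each CD8 value was below its CD4 value, and for Ccr4 the CD8 counts were 3, 1, 0 and 0 UMIs. Because the conventional CD4 T cells excluded any cell with a Foxp3 UMI, regulatory T cells with detected Foxp3 were not among them.

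Part of the killing genes were lower in the CD8 T cells than in the 272 NK cells of these libraries. NK cells were cells with at least 2 UMIs over Ncr1, Klrb1c and Klre1 and 0 UMIs of the CD3 genes and Cd79a, and these genes were left out of the comparison. Of 8867 genes tested, 103 (1.16%) were called higher in CD8 T cells and 246 (2.77%) lower, and 40 and 122 after that thinning. With at most 5% mitochondrial UMIs, 61 were higher and 62 lower, of which 47 and 54 were among the 103 and 246. The median share of mitochondrial UMIs was 5.98% in CD8 T cells and 3.84% in NK cells. In the cytotoxic list 6 of 16 genes were called lower than in NK cells (Gzma, Gzmb, Prf1, Ccl3, Fasl and Serpinb9), 1 was called higher and 9 were not called. That gene was Gzmk, with 78.4, 118, 31.4 and 172 CPM in CD8 T cells and 5.19, 0, 5.77 and 0 CPM in NK cells. Gzma in NK cells stood at 7375, 10001, 6351 and 10952 CPM, 8.92 to 18.4 times the CD8 value of the same library. Ccl5 was 1.68, 2.21, 4.55 and 2.04 times as high in NK cells and was not called. Of other cell types, H2-Ab1 of the dendritic cell list (1 of 8 tested) and Fcgr3 of the monocyte list (1 of 10) were called lower. The median log2 ratios of these lists were -2.66 and -1.50, against -0.27 over all genes tested. None of the tested genes of the B cell, neutrophil, epithelial or endothelial and stromal lists was called. The part of other cell types was not tested.

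Of the 14 listed NK receptor genes tested, 12 were called lower in CD8 T cells and 0 higher. Klra4, a Ly49 receptor for MHC class I, had 1.33, 0.838, 0 and 0 CPM in CD8 T cells, or 2 UMIs in all, and 488, 659, 499 and 675 CPM in NK cells. Klra8, another Ly49 receptor, had 6 UMIs in all CD8 T cells. Tyrobp, the adaptor that carries the signal of activating receptors, had 125, 119, 126 and 79.2 CPM against 1971, 2234, 2088 and 2353 CPM. The Klrd1 and Klrk1 receptors differed less, by 2.43 to 3.26 times and by 2.56 to 8.60 times, and Klrc1 was not called, with NK values 1.12, 1.14, 5.20 and 1.98 times the CD8 values. The NKG2 receptors were thus present in both cell types, whereas Klra4 and Klra8 were at 0 to 4 UMIs per library in CD8 T cells.

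The genes called higher than in NK cells included genes of the T cell lineage, and the limit of 0 CD3 UMIs in NK cells favors such genes. Of the T cell receptor list 7 of 11 genes tested were called higher than in NK cells (Trac, Trbc2, Cd5, Cd6, Cd27, Cd28 and Lat). Bcl11b, the factor that commits cells to the T lineage, had 249.98, 206, 228 and 450.1 CPM in CD8 T cells and 3.46, 3.25, 5.77 and 0 CPM in NK cells. Of the naive and homing list 8 of 12 genes were called higher (Dapl1, S1pr1, Lef1, Nsg2, Tcf7, Ccr7, Actn1 and Il7r). The chemokine and lipid receptors Cxcr3, S1pr1, Gpr183, Ccr9, Cxcr6 and Ccr7 were called higher and S1pr5 lower, and of 21 cytokine receptor genes Il7r was called higher and Il18rap, Il12rb2 and Il2rb lower. Il7r, the receptor for the survival cytokine IL-7, had 439, 447, 646 and 464 CPM against 15.6, 21.1, 11.5 and 37.7 CPM. Dapl1, a marker of naive and early memory CD8 T cells, had 137, 255, 231 and 199 CPM, while NK cells had 0 UMIs in all 4 libraries. Taken against the floor of 3 counts in the NK cells of a library, Dapl1 was at least 26.4-, 52.3-, 26.7- and 15.8-fold higher in CD8 T cells.

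**Figure D2:**
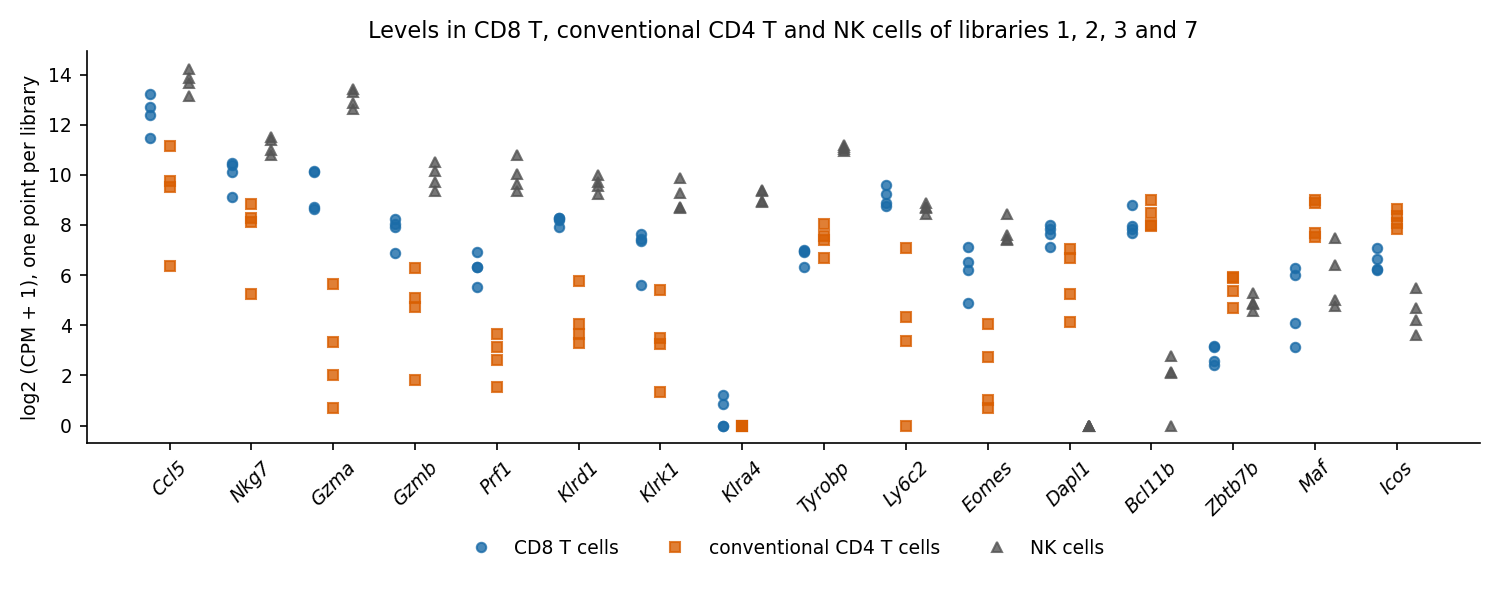
Levels of 16 genes in CD8 T, conventional CD4 T and NK cells, as log2 of CPM plus 1, with 1 point for each of libraries 1, 2, 3 and 7. Gzma, Prf1 and Klrd1 are lowest in CD4 T cells, intermediate in CD8 T cells and highest in NK cells, Klra4 is near 0 in CD8 T cells (0 to 1.33 CPM), and Zbtb7b and Maf are lower in CD8 than in CD4 T cells of every library.

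The CD8 T cells were not uniform. By a rule set on Ccl5 and Nkg7, a cell was placed on the effector side with at least 2 UMIs of these genes. At 1500 UMIs per cell, which left out 3 of 461 cells, 54.0%, 60.1%, 31.6% and 66.2% of the CD8 T cells of libraries 1, 2, 3 and 7 were on the effector side. Without thinning, the effector side held 74.5%, 81.3%, 63.2% and 78.5%. At both depths library 3 had the lowest share on the effector side. Of the B cells, 3 of 1741 were on it after thinning and 13 of 1772 without. An Nkg7 UMI was found in 382 of the 461 cells and a Ccl5 UMI in 50.5%, and a further division was made with Ccl5 in place of both, chosen after its values had been seen.

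In that division a cell was Ccl5-high with at least 3 Ccl5 UMIs, and homing-high with at least 3 UMIs over Ccr7, the receptor that leads T cells into lymph nodes, and Lef1, a transcription factor of naive T cells. Few cells lay near the limit for Ccl5, with 228 at 0 UMIs, 27 at 1 to 4 and 206 at 5 or more, whereas 92 cells had 1 to 4 homing UMIs, 114 had 0 and 255 had 5 or more. Ccl5-high homing-low cells numbered 138 (29.9%), Ccl5-low homing-high cells 214 (46.4%), cells high in both 72 (15.6%) and cells low in both 37 (8.03%). The division is set by limits on UMIs and does not define cell types.

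**Figure D3:**
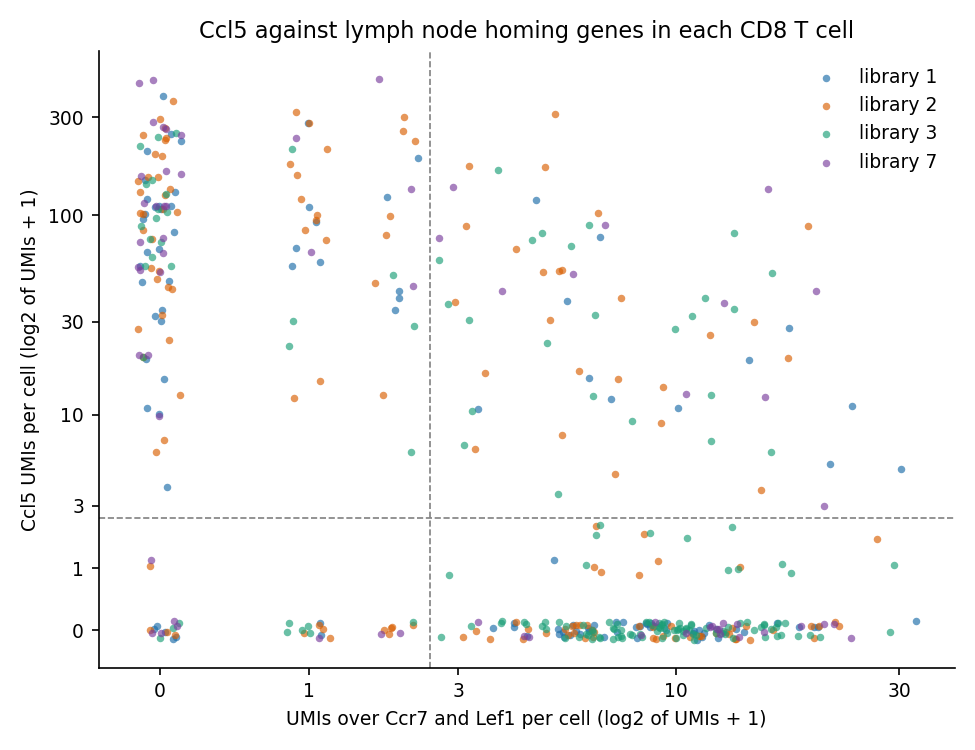
UMIs of Ccl5 against UMIs summed over Ccr7 and Lef1 in each of the 461 CD8 T cells, both as log2 of UMIs plus 1 with a small random offset, colored by library, with dashed lines at the limits of 3 UMIs. Most cells lie along one axis or the other, and 72 cells lie in the upper right part where both are high.

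Library 3 stood out in this division. Ccl5-high homing-low cells were 37.3%, 36.7%, 14.2% and 41.5% of the CD8 T cells of libraries 1, 2, 3 and 7, and Ccl5-low homing-high cells were 44.1%, 36.0%, 64.5% and 29.2%. The interval of the first share in library 3, 9.11 to 20.7%, lay below the intervals of the other 3 libraries, the lowest of which began at 27.9%. The median of 6642 UMIs per CD8 T cell in library 3 lay between those of libraries 1 and 2. The share of mitochondrial UMIs moved with the division: its median was 4.97% in Ccl5-high homing-low cells and 6.42% in Ccl5-low homing-high cells. Its part in the result was not tested.

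The Ccl5-high homing-low cells were higher in killing genes in each of the 4 libraries. They were compared with the 193 cells that had 0 Ccl5 UMIs and at least 3 homing UMIs. Of 8442 genes tested, leaving out those that made the division, 149 (1.76%) were called higher and 44 (0.521%) lower. With at most 5% mitochondrial UMIs, which left 122 CD8 T cells, 5 were higher and 14 lower, and with each cell thinned to 1500 UMIs before the rule, which left 274, 10 were higher and 8 lower. Of the cytotoxic list 11 of 15 genes tested were called higher (Gzma, Gzmb, Gzmk, Prf1, Ifng, Fasl, Ccl3, Ccl4, Cst7, Serpinb9 and Ctsw), with a median log2 ratio of 4.58 against 0.36 over all genes tested. Of the terminal effector list 6 of 9 were called higher (Zeb2, Klrg1, Gzmb, Cx3cr1, Tbx21 and Id2), and of the homing list 8 of 10 were called lower (Dapl1, Bach2, Nsg2, Tcf7, Igfbp4, Actn1, Il7r and Satb1). The genes named for this division were picked after their values had been seen.

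The sequences just before the start sites of 3 granzyme genes and of 2 genes of the homing-high cells are shown. These genes were among the called genes whose smallest ratio between the ends of the division was largest. The sequences are the 120 bases before the RefSeq start on GRCm38.p6, 5' to 3' on the gene's strand. Gzma lies at chr13:113100982-113101101 on the minus strand, Gzmb at chr14:56262335-56262454 on the minus strand, Gzmk at chr13:113180966-113181085 on the minus strand, Dapl1 at chr2:59484533-59484652 on the plus strand and Igfbp4 at chr11:99041124-99041243 on the plus strand. Capitals mark matches to the RUNX letters TGTGGT, the TCF/LEF letters CTTTGA and the T-box letters TCACACC, searched on both strands, of which none contains another.
Gzma: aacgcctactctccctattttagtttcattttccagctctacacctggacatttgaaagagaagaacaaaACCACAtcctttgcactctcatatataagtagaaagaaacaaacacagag
Gzmb: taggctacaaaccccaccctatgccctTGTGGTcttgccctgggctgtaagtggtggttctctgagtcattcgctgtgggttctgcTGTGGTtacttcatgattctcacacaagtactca
Gzmk: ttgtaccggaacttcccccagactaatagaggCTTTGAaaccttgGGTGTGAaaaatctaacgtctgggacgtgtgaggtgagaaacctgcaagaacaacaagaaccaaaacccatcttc
Dapl1: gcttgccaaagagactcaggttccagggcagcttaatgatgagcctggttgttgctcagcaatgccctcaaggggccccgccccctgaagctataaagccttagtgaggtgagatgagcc
Igfbp4: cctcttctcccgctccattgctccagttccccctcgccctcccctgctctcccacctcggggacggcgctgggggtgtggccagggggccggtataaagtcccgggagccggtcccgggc

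Gzma held a RUNX match that began 50 bases before the start, as ACCACA on the strand shown, and Gzmb held RUNX matches that began 93 and 34 bases before it. Gzmk held a TCF/LEF match at 88 bases and a T-box match at 75 bases, and no match was found in the Dapl1 or Igfbp4 windows shown. Over the 250 bases before the start, the RUNX letters were in 15.9% of the 27025 RefSeq genes searched and in 13.2% of the 6663 tested genes with an entry. They were in 26 of the 116 genes with an entry that were higher in the Ccl5-high homing-low cells (22.4%), and in 2 of 33 that were lower (6.06%). For the TCF/LEF letters these shares were 12.9% and 9.09%, beside 12.5% of the tested genes, and for the T-box letters 6.90% and 3.03%, beside 3.44%. These shares leave out the genes of chromosome 18, and a gene with several starts was counted if any of them held the letters. A match of so few letters describes the sequence and not the binding of a factor.

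Gzma had 1329, 2921, 3545 and 2995 CPM in the Ccl5-high homing-low cells of libraries 1, 2, 3 and 7 and 0 UMIs in the 214 Ccl5-low homing-high cells, where 3 counts would be 1.89 CPM. Cells high in both had 0, 658, 47.2 and 0 CPM. Library 3, with the smallest share of Ccl5-high homing-low cells, thus did not have the lowest Gzma within them. These cells numbered 38, 51, 22 and 27 in libraries 1, 2, 3 and 7. Of the UMIs of the 9 listed NK cell genes, led by Gzma, 1 CD8 T cell held 13.8%, 13.6%, 23.8% and 15.2% in these libraries. Gzmb likewise had 374, 730.2, 1822 and 676 CPM in Ccl5-high homing-low cells and 8.89, 0, 2.83 and 0 CPM in Ccl5-low homing-high cells. Gzmk had 259.6, 271, 153 and 453 CPM in the first and 0 UMIs in the second.

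Of the NK receptor list 4 of 12 genes tested were called higher (Klre1, Klrk1, Klrc1 and Klrc2) and 0 lower. Klrk1, the NKG2D receptor for stress ligands, had 427, 436, 345 and 463 CPM in Ccl5-high homing-low cells and 0, 0, 4.24 and 43.7 CPM in Ccl5-low homing-high cells. Klrd1 was not called: it had 506, 397, 383 and 453 CPM in the first and 189.6, 300.3, 231 and 262 CPM in the second. Klrd1 was thus carried at both ends of the division, while Klre1 was at 0 UMIs in the Ccl5-low homing-high cells.

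Other surface genes called higher were the chemokine receptors Ccr2, Cx3cr1, Cxcr3 and Cxcr6, 4 of 12 tested, and 1 was called lower. Ccr2, a receptor of monocytes and effector T cells, had 273, 245, 153 and 514 CPM in Ccl5-high homing-low cells and 20.7, 20.7, 12.7 and 0 CPM in Ccl5-low homing-high cells. The lower one was Ccr9, a receptor of T cells that enter the gut, with 0, 33.5, 0 and 10.2 CPM against 57.1, 69.2, 57.5 and 125 CPM in the 193 cells with 0 Ccl5 UMIs used for the calls. Over all 214 Ccl5-low homing-high cells library 2 had 59.5 CPM, under 2-fold above the 33.5 CPM. For both receptors the ends of the division did not overlap across libraries. Cxcr6, a receptor of lung-resident T cells, had 589.6, 54.2, 115 and 412 CPM against 23.7, 18.1, 8.49 and 43.7 CPM. Its level within the Ccl5-high homing-low cells differed between libraries, with library 2 low. Of the residency list 5 of 12 genes tested were called higher (Rgs1, Xcl1, Bhlhe40, Cxcr6 and Itga1), while Itgae, the integrin that binds epithelium, was not.

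Of the cytokine receptors 4 of 21 tested were called higher (Il18rap, Il10ra, Il10rb and Il2rb) and 3 lower (Il7r, Il6st and Ifngr2). Il18rap, a chain of the IL-18 receptor, had 172, 155, 107 and 173 CPM in Ccl5-high homing-low cells and 12.0, 6.29, 4.93 and 6.25 CPM in the cells with 0 Ccl5 UMIs and high homing genes. Il6st, the chain that carries IL-6 signals, had 17.6, 43.9, 22.97 and 15.3 CPM against 93.2, 126, 105 and 112 CPM. The ends did not overlap in either gene.

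Of the 10 listed genes of gamma delta T cells 5 were tested. Of these, 2 were called higher (Tcrg-C2 and Tcrg-C4) and 0 lower, with a median log2 ratio of 3.76 over the 5. Tcrg-C2 had 268, 31.0, 145 and 76.3 CPM in Ccl5-high homing-low cells and 6.01, 0, 0 and 12.5 CPM in the cells with 0 Ccl5 UMIs and high homing genes. Trdc was not called, with 0, 85.1, 0 and 0 CPM against 21.0, 0, 6.57 and 18.7 CPM. In the Ccl5-high homing-low cells its UMIs came from library 2 alone. The constant gamma genes are close relatives in sequence, so their separate values are uncertain. Of other cell types, Ccr2 of the monocyte list (1 of 8 tested) and Itgax of the dendritic cell list (1 of 2) were called higher, and Ighm of the B cell list (1 of 4) and Pecam1 of the endothelial list (1 of 7) lower. The endothelial and stromal list nonetheless had a median log2 ratio of 2.25, and the neutrophil list, with 0 of 6 called, one of 1.66. That of the B cell list was -1.84, against 0.36 over all genes tested. The part of other cell types in the division was not tested.

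Of the listed T cell transcription factors 4 of 25 tested were called higher (Zeb2, Tbx21, Ikzf3 and Id2) and 3 lower (Bach2, Tcf7 and Satb1), and the rest were not called. Zeb2, a factor of terminal effector cells, had 194, 255, 237 and 279.6 CPM in Ccl5-high homing-low cells and 32.6, 33.7, 34.0 and 0 CPM in Ccl5-low homing-high cells. Id2, which restrains E proteins and favors effector cells, had 946, 575, 498 and 1154 CPM against 159.9, 153, 93.4 and 256 CPM. Tcf7, the factor that keeps naive and memory cells self-renewing, had 119, 85.1, 99.5 and 40.7 CPM against 394, 308, 344 and 487 CPM. In these 3 genes the ends did not overlap across libraries.

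At the other end, Igfbp4, a gene of naive T cells, had 189.6, 212, 187 and 237 CPM in Ccl5-low homing-high cells, 9.14, 28.9, 3.63 and 0 CPM in cells high in both and 0, 7.74, 0 and 0 CPM in Ccl5-high homing-low cells. Its level in cells high in both lay near that of the Ccl5-high homing-low cells. Dapl1 had 258, 437, 321 and 456 CPM, then 101, 257, 83.5 and 202 CPM, then 4.40, 61.9, 0 and 0 CPM in the same order, and so was intermediate in cells high in both. Il7r had 518, 813, 739.9 and 587 CPM, then 887, 392, 683 and 664 CPM, then 202, 155, 122 and 40.7 CPM. For Il7r the homing-high cells with and without Ccl5 overlapped, and the Ccl5-high homing-low cells lay below both.

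Cells high in both markers lay above both ends in Ly6c2 and near the Ccl5-high homing-low cells in Cxcr3 and Il2rb. Ly6c2 had 749.6, 1207, 1002 and 1279 CPM in them, 475, 1029, 758 and 666 CPM in Ccl5-high homing-low cells and 355, 316, 236 and 299.9 CPM in Ccl5-low homing-high cells. In each library Ly6c2 was highest in the cells high in both. Cxcr3, a receptor of memory T cells, had 82.3, 161, 76.3 and 96.2 CPM in them, near the 180.4, 103, 107 and 107 CPM of Ccl5-high homing-low cells, and 26.7, 7.77, 14.1 and 12.5 CPM in Ccl5-low homing-high cells. Il2rb, the chain for IL-2 and IL-15 signals, had 393, 344, 407 and 635 CPM against 546, 235, 513 and 417 CPM and 216, 101, 163 and 181 CPM in the same order. These 72 cells had a median of 9142.5 UMIs, against 5461.5 in Ccl5-high homing-low and 6623 in Ccl5-low homing-high cells, and 3 of them held over 1% of UMIs of other cell types. The part of depth and of RNA from other cells in their double state was not tested.

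**Figure D4:**
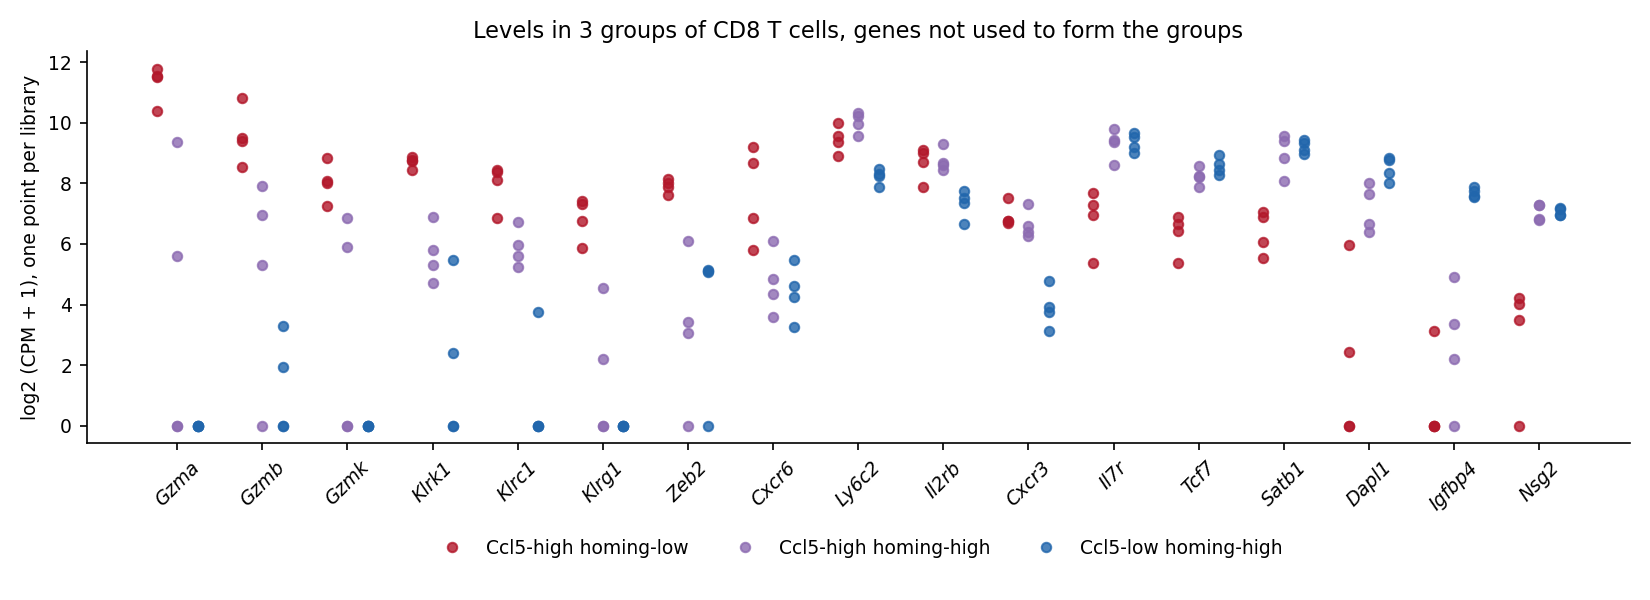
Levels of 17 genes that were not used to divide the cells, as log2 of CPM plus 1, in Ccl5-high homing-low, Ccl5-high homing-high and Ccl5-low homing-high CD8 T cells, with 1 point for each of libraries 1, 2, 3 and 7. Gzma and Gzmk are at 0 in Ccl5-low homing-high cells of every library, Il7r and Satb1 are lowest in Ccl5-high homing-low cells, and Ly6c2 is highest in the middle group of each library.

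Cell division was read from 8 genes, among them Mki67 and Top2a, and a cell with a UMI of at least 3 of them was counted. This gave 39 of 461 CD8 T cells (8.46%, interval 6.08 to 11.4%) and 62 of 418 conventional CD4 T cells (14.8%, interval 11.6 to 18.6%). Among CD8 T cells they were 18 of the 138 Ccl5-high homing-low cells (13.0%), 8 of the 72 high in both (11.1%), 5 of the 214 Ccl5-low homing-high cells (2.34%) and 8 of the 37 low in both (21.6%). In NK cells the share was 13 of 272 (4.78%) and in B cells 61 of 1772 (3.44%). All these shares were taken without thinning. By library 7.84%, 11.5%, 7.74% and 4.62% of the CD8 T cells and 15.8%, 18.6%, 14.8% and 4% of the CD4 T cells of libraries 1, 2, 3 and 7 were dividing, so that the CD8 share was the lower in libraries 1, 2 and 3 and not in library 7, with 3 and 2 dividing cells. The intervals of the 2 cell types overlapped in each library, and library 1 gave 190 of the 418 CD4 T cells.

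Genes that set one lung library apart were sought among 5559 genes with at least 20 CPM, as those at least 2-fold above or below each other lung library. Library 1 had 43 higher (0.774%) and 20 lower (0.36%), library 2 had 47 (0.845%) and 8 (0.144%), library 3 had 11 (0.198%) and 77 (1.39%), and library 7 had 17 (0.306%) and 123 (2.21%). Among those with the largest ratios were genes of other cell types, several of which are given below. In library 1 these were Ccl17 and Mmp12, genes of dendritic cells and macrophages, with 150.3 and 118 CPM, of which 46.9% and 48.3% lay in 1 cell.

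Xcl1, a chemokine that CD8 T and NK cells make to draw cross-presenting dendritic cells, had 1182 CPM in library 1 and 22.6, 23.5 and 58.0 CPM in libraries 2, 3 and 7. In library 1 it was found in 21 of 102 cells, and 34.1% of its 889 UMIs lay in 1 cell. After thinning, 14.0% of the cells of library 1 had an Xcl1 UMI (interval 7.87 to 22.4%), against 2.90%, 1.94% and 1.54% in the others and 0.0574% of B cells. Of the 15 genes of the checkpoint and activation list, 10 were highest in library 1, and 6 of these were second in library 7 (Pdcd1, Lag3, Ctla4, Tox, Tnfrsf9 and Il2ra). Of all 5559 genes with at least 20 CPM, 33% were highest in library 1 and 15.7% were also second in library 7. In library 1, 3 cells held 31.5% and 1 cell 16.6% of the UMIs of the list, and in library 7 these shares were 36.1% and 15.8%. Icos, the most abundant of the list over all CD8 T cells but not in library 1, was highest in library 7, with 99.7, 72.1, 75.8 and 133 CPM. Tnfrsf4 was at 0 in library 7. The 4 genes given next were chosen after their values were seen. Lag3 had 141, 8.38, 7.85 and 42.5 CPM, Pdcd1 73.1, 5.87, 5.23 and 42.5 CPM, Tox 138, 20.1, 34.0 and 67.6 CPM, and Tnfrsf9 65.2, 10.9, 2.62 and 42.5 CPM. In these 4 genes library 1 was highest and library 7 second. After thinning, a Tox UMI was found in 17 of 100, 3 of 138, 9 of 155 and 4 of 65 cells of libraries 1, 2, 3 and 7, and in 0.230% of B cells.

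Cxcr6 separated the libraries in pairs, with 218 and 255 CPM in libraries 1 and 7 and 41.1 and 20.9 CPM in libraries 2 and 3. A Cxcr6 UMI was found in 20 of 100, 9 of 138, 5 of 155 and 19 of 65 thinned cells of libraries 1, 2, 3 and 7, against 0.0574% of B cells, and in 39.2%, 20.9%, 6.45% and 53.8% without thinning. Within the Ccl5-high homing-low cells, libraries 1 and 7 were again highest in Cxcr6, with 589.6 and 412 CPM against 54.2 and 115 CPM. Lag3 within these cells had 365, 12.9, 30.6 and 96.6 CPM, and Tox 277, 25.8, 30.6 and 86.4 CPM. For Lag3 and Tox too, libraries 1 and 7 were highest within these cells.

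**Figure D5:**
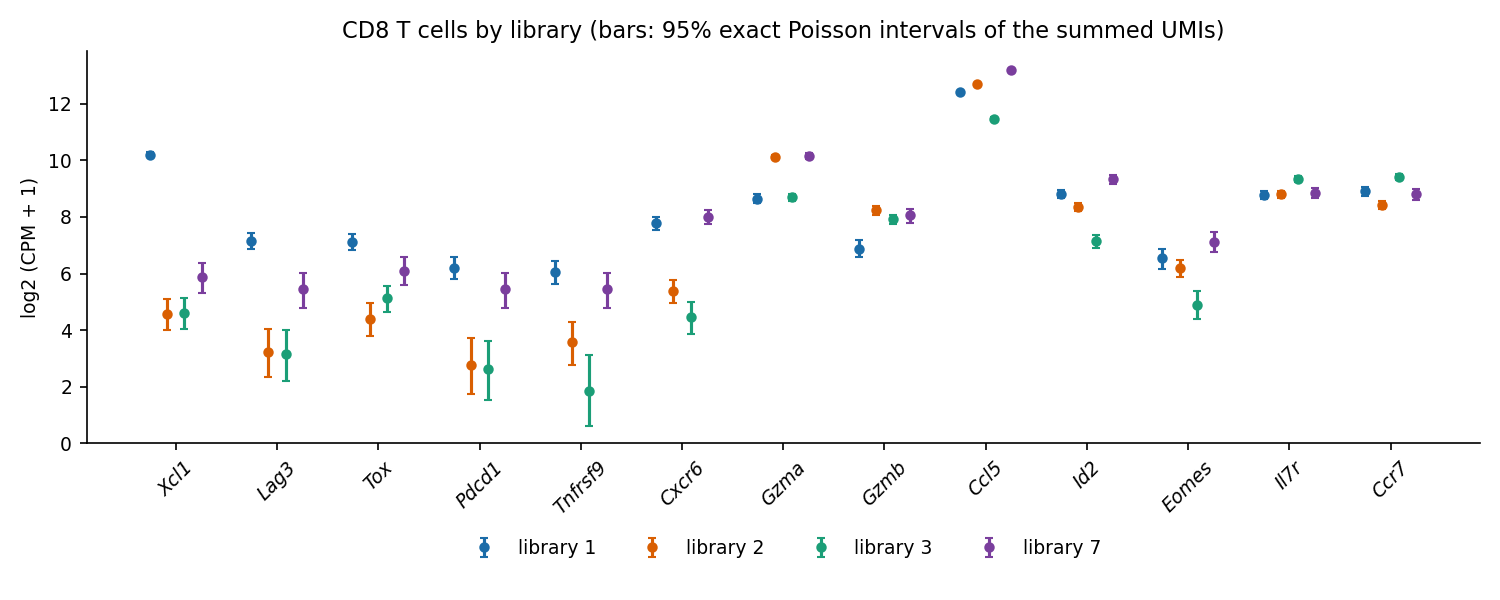
Levels of 13 genes in the summed CD8 T cells of each lung library, as log2 of CPM plus 1, with bars for exact Poisson 95% intervals of the summed UMIs. Xcl1 is highest in library 1 (1182 CPM), Lag3, Tox, Pdcd1 and Tnfrsf9 are highest in library 1 and next in library 7, and Ccl5 and Id2 are lowest in library 3.

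Library 7 stood apart by Gm42418, a transcript that overlaps ribosomal RNA genes, with 5582, 3053, 4563 and 18583 CPM in libraries 1, 2, 3 and 7, present in every CD8 T cell. Genes of antigen-presenting cells were low there: Cd74, the invariant chain of MHC class II, had 735, 1342, 550.1 and 30.9 CPM. In libraries 1, 2 and 3 a single cell held 52.6%, 43.7% and 70.5% of the Cd74 UMIs. The 10 listed B cell genes summed to 1194, 2107, 938 and 228 CPM, with 3 cells holding 71.0%, 82.0% and 74.9% in the first 3 libraries, and Cd79a was at 0 by the rule.

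The other cell types left like traces. In library 3 Sftpc, the surfactant protein of alveolar type II cells, had 3412 CPM, of which 97.3% came from 1 cell, against 18.6, 132 and 11.6 CPM in libraries 1, 2 and 7. The 9 epithelial genes summed to 291, 835, 4893 and 127 CPM, with Foxj1 at 0 in all 4 libraries. The 6 neutrophil genes summed to 19.9, 748, 676 and 732 CPM, of which 3 cells held 93.4%, 93.2% and 95.8% in libraries 2, 3 and 7, and S100a9, the most abundant of them over all CD8 T cells, was at 0 in library 1 as were Csf3r and Cxcr2. The 10 monocyte and macrophage genes summed to 3868, 2324, 1925 and 2136 CPM, with Chil3 the most abundant of them over all CD8 T cells (911 CPM, and 2675 CPM in library 1, of which 38.8% lay in 1 cell), and Adgre1 and Marco were at 0 in library 1. That list holds Ly6c2, which is also a gene of CD8 T cells, and without it the sums were 3440, 1562, 1451 and 1534 CPM.

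The 9 dendritic cell genes summed to 419, 685, 301 and 67.6 CPM, led by H2-Ab1 in libraries 1, 2 and 3 and by Itgax, which T cells can also carry, in library 7. The 9 genes of endothelium and stroma summed to 338, 724, 205 and 71.5 CPM, led by Pecam1 over all CD8 T cells, and the genes highest in library 2 (Mfap4, Eln, Cyr61, Col3a1 and Inmt) were of this kind. Mfap4, an elastic fibre protein, had 206 CPM in library 2, and 61.4% of it lay in 1 cell. The 9 listed NK cell genes summed to 828, 1556, 730 and 1592 CPM, led by Gzma in each library. Of them Eomes had 91.7, 72.1, 28.8 and 139 CPM, and Tyrobp was present at the levels given above. Klra4 and Klra8 were near 0 as given above, and Ncr1, the defining NK receptor, was at 0 in libraries 1 and 7. Of the gamma delta T cell genes Tcrg-V6 was at 0 in all 4 libraries and the list summed to 202, 131, 48.0 and 178 CPM.

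In all, 18 of the 461 cells held over 1% of their UMIs in 49 genes of other cell types, and Scrublet called 14 cells doublets. Leaving out the 18 cells, an alternative chosen after seeing the data, changed the genes that set a library apart from 346 to 316 over both directions and all 4 libraries.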

How the data were processed

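The authors' deposited counts are UMI counts per gene and cell barcode, as whole numbers with no normalization after Cell Ranger. By the study's methods, reads were aligned with STAR and down-sampled to make libraries alike. The submitters' processing notes name mm10, and the annotation was not stated. The labels name kit version v3 and the study's methods an earlier version. No library could be tied to any of the 13 samples.

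Members and gene lists were chosen with earlier results of these data known. CPM are UMIs summed over the cells of a type in a library, per 1e+06 of their UMIs. For a call, a count under 3 in the lower arm was raised to 3, and for a printed ratio a count of 0 was. Poisson and binomial intervals were exact at 95%. Cells were thinned by drawing 1500 UMIs without replacement. Of 31053 genes, 30934 identifiers were found in GENCODE M21.

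Genes were named from those of the rules, the most abundant of each list, the 10 called genes per direction with the largest smallest ratio, the 5 per direction that set a library apart, and called chemokine, cytokine and NK receptors. A planned share and gene comparison, and some genes, are not reported here; the division by Ccl5, Ccr7 and Lef1 was chosen after seeing the data. Other names were chosen after their values were seen. Scrublet, the doublet caller, ran through scanpy 1.11.5. Scripts ran under Python 3.11.15. Matrices used scipy 1.17.1 and numpy 2.4.6, tables used pandas 2.3.3 and figures used matplotlib 3.10.9. The call rule was tested on simulated data with known folds. RefSeq start windows were matched by symbol. Alternatives changed the mitochondrial limit, the CD3 and CD8 limits, the study's limits on UMIs and genes, the fold, the filter on low values, the depth, the doublets, the weighting of cells and the libraries, and, chosen after seeing the data, cells with RNA of other types.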

Additional observations from a re-analysis of the deposited data

Results flagged for a closer look

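The 57 values given for each of libraries 1, 2, 3 and 7 were searched for 1 library far from the other 3, by the gap to the nearest library over the whole range, and 7 passed Dixon's critical value for 4 values. Chance gives about 1 such case in 20 groups, and the libraries are not replicates of a labelled group. That rate does not apply to Xcl1, Ccl1, Mfap4, Sftpc and Gm42418, which were named because they set 1 library apart. In library 1 these were Xcl1 at 1182 CPM and Ccl1 at 347 CPM, a chemokine whose UMIs came to 88.1% from 1 cell. In library 2 Mfap4 reached 206 CPM, and in library 3 Sftpc reached 3412 CPM and Il7r 646 CPM. In library 7 Gm42418 reached 18583 CPM and Tyrobp was low at 79.2 CPM. Il7r and Tyrobp alone were no more than that rate would give for so many values.

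Outside the comparisons, cells of the same rule in libraries 4, 5 and 6 numbered 55, 124 and 169 and were 67.9%, 58.5% and 62.1% of the T cells there, against 34.7% over the 4 lung libraries. These libraries were otherwise used only in the check of lung origin, and the difference was not tested.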

How the results depend on the processing

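No paired analysis was possible because the replicate numbers of the labels could be tied to no library and no test between groups was made. Cell types and states were compared within each library. With 5% mitochondrial UMIs in place of 10%, the 461 CD8 T cells became 122, 31.2% of T cells in place of 34.7%, with 74.2% on the effector side in place of 229 of 458 cells. Of the Ccl5-high homing-low cells 50.7% met that limit, and of the Ccl5-low homing-high cells 11.7%. It left 8 genes lower than in CD4 T cells in place of 58, 61 higher than in NK cells in place of 103 and 62 lower in place of 246, and 5 genes higher and 14 lower in the Ccl5-high homing-low cells in place of 149 and 44. Requiring both Cd8a and Cd8b1 gave 27.2% of T cells, and 27 genes lower in the Ccl5-high homing-low cells. Thinning each cell to 1500 UMIs before the rule gave 274 cells, 27.5% of T cells, 6 genes higher and 11 lower than in CD4 T cells, of which 5 and 3 were among the 28 and 58, 40 higher and 122 lower than in NK cells, of which 32 and 79 were among the 103 and 246, and 10 genes higher and 8 lower in the Ccl5-high homing-low cells, of which 7 and 3 were among the 149 and 44. Without thinning the effector side held 73.3%, and at 2000 UMIs the effector side held 55.3%.

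A fold of 1.5 gave 69 genes higher (in place of 28) and 176 lower than in CD4 T cells, 224 and 521 against NK cells, and 418 and 122 in the Ccl5-high homing-low cells. A 2-fold median library ratio gave 118 and 420, 262 and 1030, and 843 and 168 in the same order. Leaving out 1 library in turn gave 306 to 396 cells, 30.7 to 40.3% of T cells and 45.6 to 59.4% on the effector side. It gave 30 to 55 genes higher and 95 to 109 lower than in CD4 T cells, 119 to 135 higher and 305 to 421 lower than in NK cells, and 188 to 282 higher and 53 to 78 lower in the Ccl5-high homing-low cells, since 3 libraries set fewer conditions than 4. The effector side share was highest without library 3, as was the number of genes higher than in CD4 T cells, and in the Ccl5-high homing-low cells 282 genes were higher without library 1, 249 without library 7, and 78 lower without library 3. Of 127 alternative values for the counts and shares, 47 moved beyond the limit set for them. Of the 162 named genes, the CPM over all CD8 T cells moved by over 1.5 times in 88 at 5% mitochondrial UMIs (53 up and 35 down), in 57 with thinning before the rule, in 37 when the mean was taken over cells (5 up and 32 down) and in 2 to 29 under the other alternatives that moved any. Counts of a few UMIs per library limit the genes under about 10 CPM.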
